A study of Mus musculus with 8 samples.

Results

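The 9 genes C1qa, C1qb, C1qc, Csf1r, Cx3cr1, P2ry12, Tmem119, Trem2 and Tyrobp, chosen by name for their place in microglial identity and in the complement and Trem2-Tyrobp systems, were followed through single nuclei RNA sequencing of the mouse ventricular-subventricular zone (V-SVZ), the neural stem cell (NSC) niche along the lateral ventricle. The choice was made with earlier results of these data known. All 9 were found among the 32285 genes of the count tables. The V-SVZ was dissected at postnatal day 90 (P90) from 8 mice, 4 Tsc2 wt/wt and 4 Tsc2 mut/mut, and each mouse gave 1 library. The strains of the study are a Rosa26 tdTomato reporter, the tamoxifen-inducible Nestin-CRE-ERT2 transgene and the conditional Tsc2tm1.1Mjg allele, and recombination in its pups was induced by tamoxifen or by electroporation of a CRE plasmid into the ventricle wall. Which route was used for these 8 mice is not given in the sources used here, and the labels state only the Tsc2 genotype. From each mouse 100000 tdTomato-positive nuclei were sorted. Both routes are aimed at neural stem and progenitor cells, and microglia lie outside that lineage. Whether they carried a deleted Tsc2 allele cannot be read from these counts. Tsc2 counts were summed over all barcodes of at least 300 genes. They spanned 11.2 to 13.4 counts per 1000000 UMIs (unique molecular identifiers, the count of captured transcripts) in Tsc2 wt/wt. In Tsc2 mut/mut they spanned 9.34 to 12.9. The nuclei called microglia-like below held only 0 to 7 Tsc2 UMIs per mouse. Moreover, 3′ counts do not report whether an internal stretch of the gene was deleted.

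Microglia are the resident macrophages of the brain parenchyma. They depend on Csf1r, the receptor for the cytokines Csf1 and Il34, and sense neurons and injury through Cx3cr1, the fractalkine receptor, and P2ry12, a receptor for ADP, while Tmem119 is a membrane protein widely used to tell them from other macrophages. C1qa, C1qb and C1qc encode the A, B and C chains of C1q, the recognition molecule that starts the classical complement pathway, and Trem2 is a lipid-sensing receptor that signals through the adaptor Tyrobp, also called DAP12.

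The C1q genes form a single block on mouse chromosome 4 of GRCm38 in the GENCODE M21 annotation, all on the minus strand, with C1qb at chr4:136880129-136886187, C1qc at chr4:136889804-136893065 and C1qa at chr4:136895917-136898803. The gaps between neighbours are 3616 and 2851 bases. P2ry12 lies at chr3:59216272-59262871 on the minus strand, where it overlaps Med12l on the opposite strand. Tmem119 lies at chr5:113793729-113800516 on the minus strand, Tyrobp at chr7:30413760-30417585 on the plus strand, and Trem2 at chr17:48346401-48354147 on the plus strand. Cx3cr1 covers chr9:119901616-120069879 on the minus strand, a span of 168264 bases that overlaps Csrnp1, Gorasp1 and Xirp1 on the same strand, so the assignment of reads in that stretch is uncertain.

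RefSeq promoter windows on GRCm38.p6 matched 5 of the 9 genes, C1qb, C1qc, Cx3cr1, P2ry12 and Trem2. They were searched on both strands for GAGGAA, the core letters bound by Spi1 (PU.1, the factor that directs the macrophage lineage), and for the ETS-IRF composite element, whose first letters overlap the last 4 of the Spi1 core. In the 250 bases before the start, GAGGAA or its reverse complement was present in C1qb, C1qc and Trem2 and not in Cx3cr1 or P2ry12, and it was present in 23.3% of 32851 mouse promoters. The composite was in none of the 5 windows and in 2.30% of all promoters. GENCODE exons covered all 250 bases searched for Cx3cr1 and for P2ry12, and 151 of those for C1qc. The absence in Cx3cr1 and P2ry12 is thus of annotated exon sequence. The 150 bases before the start are shown for C1qb, at chr4:136886201-136886350 on the minus strand, and Trem2, at chr17:48346251-48346400 on the plus strand. Their windows held no exon base and hold the match closest to the start, given in capitals. The match lies 30 to 25 bases before the start of C1qb, and 40 to 35 bases before the start of Trem2, where it reads on the reverse strand. These matches describe the letters only and are not evidence of binding.
C1qb: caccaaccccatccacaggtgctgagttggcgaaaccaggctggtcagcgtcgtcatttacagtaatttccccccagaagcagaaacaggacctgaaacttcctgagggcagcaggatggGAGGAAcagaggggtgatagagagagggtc
Trem2: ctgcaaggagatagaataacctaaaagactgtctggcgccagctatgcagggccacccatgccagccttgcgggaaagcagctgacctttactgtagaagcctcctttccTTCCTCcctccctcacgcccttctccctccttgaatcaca

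The libraries held 11182335 to 36773832 UMIs over 60000 barcodes each, a number set by the authors. Barcodes with at least 300 detected genes numbered 37881, from 1923 to 10153 per mouse. Among them, 491 held at least 1 UMI of both Inpp5d, a phosphatase of haematopoietic cells, and Apbb1ip, an adaptor of integrin signalling. These are called microglia-like nuclei here, and neither gate gene is a member of the gene set. The remaining 37390 barcodes of at least 300 genes are called other barcodes. A further 188560 barcodes with at least 100 and under 200 genes, which hold little RNA, were summed separately and are called shallow barcodes. Levels are given as counts per 1000000 UMIs of the class in each mouse (CPM). No 2 libraries shared a microglia-like barcode, and 1 to 15 barcodes of at least 300 genes were shared per pair of libraries.

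The name of the gated nuclei was checked on genes outside both the gate and the set. All 12 other microglial markers were detected, with a summed level of 8705 ± 1396 CPM (SD, n = 8 mice) against 190 ± 51.7 in the other barcodes. The 6 NSC or astrocyte markers summed to a mean of 4972 CPM in the same nuclei (977 to 8046 over the mice), against 7476 in the other barcodes, and exceeded the microglial sum in Tsc2 mut/mut mouse 1 (6729 against 6368) and Tsc2 mut/mut mouse 3 (7526 against 7193). Of 6 T or NK cell markers Cd3e, Cd3g, Trac and Themis were at 0, while Skap1 had 7 UMIs and Nkg7 had 3, and the list reached 153 CPM on 8 UMIs in Tsc2 wt/wt mouse 1 and at most 4.39 elsewhere. All 6 border macrophage markers were present, led by Mrc1 with 122 UMIs and F13a1 with 78, and their summed level was uneven, at 1284 CPM in Tsc2 wt/wt mouse 1 and 1258 in Tsc2 mut/mut mouse 2 and from 0 to 86.8 in the other mice. Endothelial markers reached 2127 CPM in Tsc2 wt/wt mouse 1 and at most 104 elsewhere. The nuclei held more UMIs and a smaller mitochondrial share than the rest, with a median of 1509 to 1946 UMIs per mouse against 883 to 1324, and a median mitochondrial share of 3.72% to 16.3% against 44.1% to 50.6%. In shallow barcodes the medians were 275 to 409 UMIs and 47.4% to 48.7% mitochondrial.

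All 9 genes were higher in microglia-like nuclei than in the other barcodes of the same mouse, with the largest differences for Cx3cr1, P2ry12, Tmem119 and Csf1r. The edgeR log2 difference, with the mouse as a block, was 4.65 ± 0.26 (SE, n = 8 mice) for Cx3cr1 and 4.60 ± 0.25 for P2ry12. It was 4.29 for Tmem119, 4.22 for Csf1r, 3.32 for Trem2, 3.27 for C1qc, 3.13 for C1qa and 2.62 for C1qb. Tyrobp stood lowest at 1.44 ± 0.23 (adjusted p = 1.08e-07, edgeR quasi-likelihood test with Benjamini-Hochberg adjustment over 10203 genes). The call in this direction was made for 16.1% of all genes tested on this scale, the trimmed mean of M values (TMM), and the call lower for 56%. With library totals only, an alternative chosen after the data were seen, 43.7% of all genes were called higher and 19.5% lower, so the balance of all genes turned over with the scale. All 9 members were higher on both. Their median was 3.32 with TMM, against -1.03 over all genes, and 4.99 with totals, against 0.51.

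On the plain scale of CPM, the geometric mean ratio of microglia-like to other barcodes was 86.6 for Cx3cr1, 81.7 for P2ry12, 74.9 for Tmem119 and 63.2 for Csf1r. The ratio was 34.5 for Trem2, 33.1 for C1qc, 28.7 for C1qa and 19.4 for C1qb, and 8.47 for Tyrobp. Each gene was higher in 8 of 8 mice (exact two-sided sign test, p = 0.0078125, the smallest that 8 mice can give), as were 16% of genes. With counts pooled over mice, the ratio of the median gene was 1.36. The SD of the log2 ratio over mice was 0.61 to 1.05 per gene. Paired within mice, a pair of steps in this order was larger than its spread. C1qb lay above Tyrobp by 1.20 ± 0.51 (SD) on the log2 scale, in 8 of 8 mice, and Csf1r above Trem2 by 0.87 ± 0.48, in 7 of 8. The other 6 pairs of neighbours differed by less than the SD of their difference, the widest being C1qa above C1qb by 0.57 ± 0.59. The gate genes Inpp5d and Apbb1ip, which the choice of nuclei fixes, had ratios of 171 and 220. Across the 9 genes the ratio followed the span of the gene, with a Spearman rho of 0.817, and its exonic length, with a rho of 0.733. These are descriptions over 9 genes that share libraries, and the part of gene span in the ratios was not tested. The Cx3cr1 span, the longest of the 9, overlaps other genes on the same strand, so its rank in span and ratio is uncertain.

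**Figure D1:**
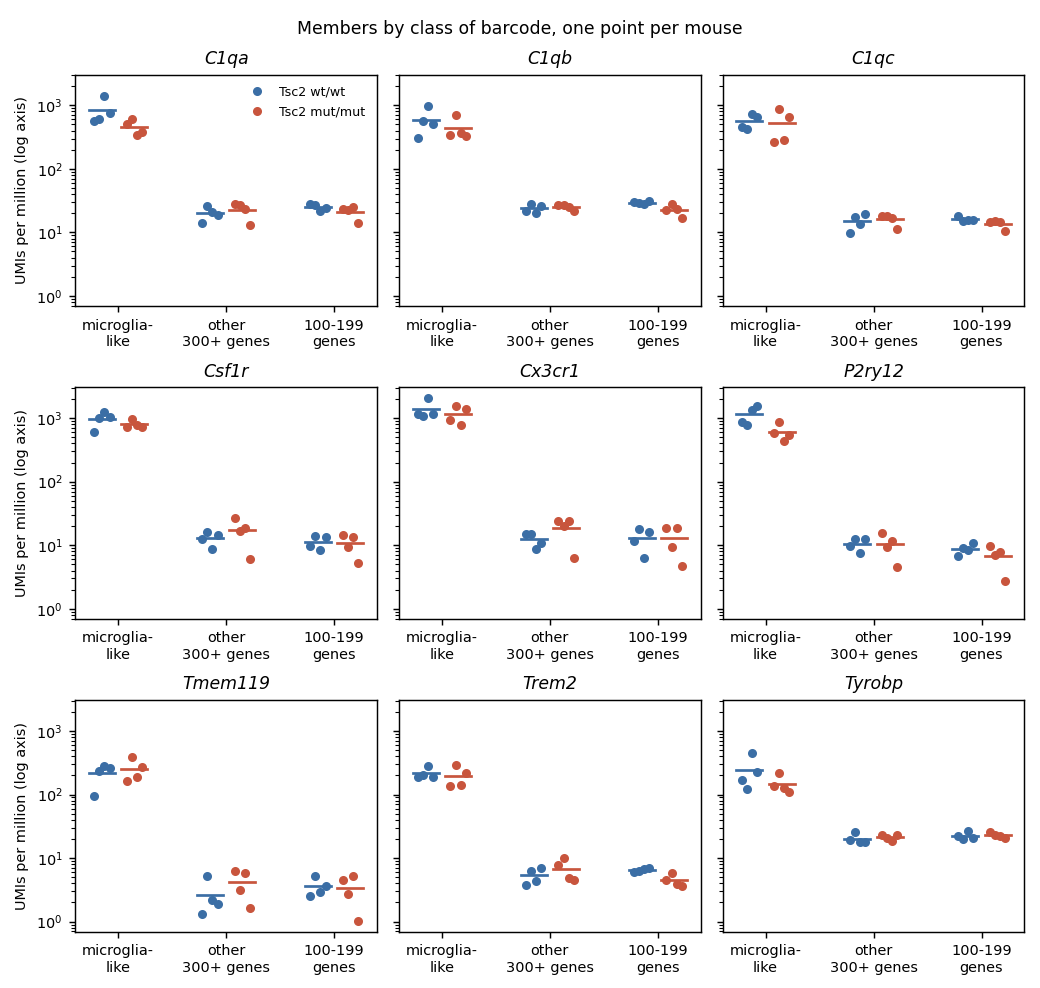
CPM (log axis) of the 9 genes in microglia-like nuclei, other barcodes of at least 300 genes and shallow barcodes, with 1 point per mouse (blue Tsc2 wt/wt, red Tsc2 mut/mut) and a line at the mean of 4 mice. Every gene sits higher in microglia-like nuclei than in both other classes, and Tyrobp shows the smallest step, from a mean of 20.9 in other barcodes to 195 in microglia-like nuclei.

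**Figure D2:**
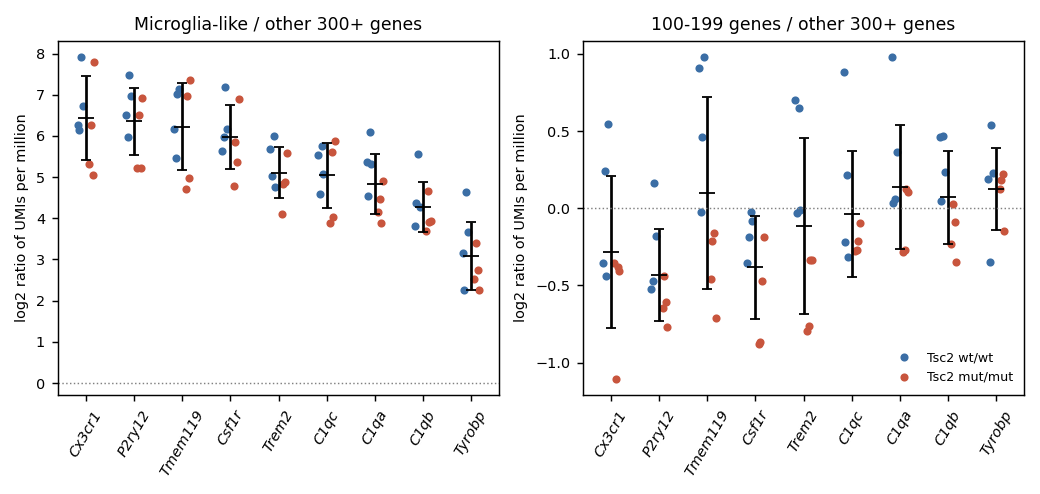
Log2 ratio of CPM in microglia-like nuclei over other barcodes (left) and in shallow barcodes over other barcodes (right), with 1 point per mouse and bars for mean ± SD of 8 mice. On the left all points lie above 0, with means from 6.44 for Cx3cr1 to 3.08 for Tyrobp, and on the right the means lie between -0.43 for P2ry12 and 0.14 for C1qa.

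Most of the genes were also seen in a large share of single microglia-like nuclei. Csf1r was detected in 77.8% of 491 microglia-like nuclei (exact 95% binomial interval 73.9% to 81.4%, counting error only) and Cx3cr1 in 76.0%. P2ry12 was detected in 60.7%, C1qa in 54.6%, C1qb and C1qc in 49.5% each, Tmem119 in 33.6%, Trem2 in 25.9% and Tyrobp in 23.4%. In the other barcodes the shares were 0.505% for Tmem119 to 2.64% for C1qb. In 602 oligodendrocyte-like nuclei, which should lack these genes and were gated on St18 and Prr5l, the shares were 0.166% for Trem2 to 3.16% for Cx3cr1, at median depths of 1505 to 3276 UMIs per mouse. With every barcode thinned to 500 UMIs, which left out 3 microglia-like nuclei and 51 other barcodes, Cx3cr1 was detected in 41.6% of microglia-like nuclei and 0.873% of other barcodes. Tyrobp after thinning was detected in 7.38% and 1.19%. A microglia-like nucleus held a median of 4 of the 9 genes, and 485 of 491 held at least 1, against 9.91% of the other barcodes. After thinning these shares were 84.0% and 5.40%.

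Outside microglia-like nuclei, the named cell classes held these genes at low levels. Over 2025 astrocyte or NSC-like nuclei the pooled level was 1.43 CPM for Tmem119 to 15.9 for P2ry12. Choroid plexus-like nuclei, of which there were 97, held no UMI of C1qa, Csf1r, Tmem119 or Tyrobp, which allows a level of up to 3.75 CPM (exact Poisson interval, counting error only). The highest pooled level outside microglia was that of Cx3cr1 in 292 ependymal-like nuclei, gated on Cfap299 and Dnah12, at 32.4 CPM (exact Poisson interval 21.4 to 47.2). Its level ranged from 0 to 43.3 over the 8 mice, and 8.90% of those nuclei held a Cx3cr1 UMI, or 1.37% after thinning. Ependymal-like nuclei held C1qa at 2.40 CPM. Their median depth was 833.5 to 4209.5 UMIs per mouse, and the overlap of Cx3cr1 with other genes leaves the origin of these reads uncertain.

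The genes differed in how much of their signal lay inside microglia-like nuclei, which held 1.93% ± 1.21 (SD, n = 8 mice) of all UMIs of barcodes with at least 300 genes. Within barcodes of at least 300 genes, 57.5% ± 9.42 of the Cx3cr1 UMIs lay in these nuclei, and 56.2% ± 12.2 of those of P2ry12. Of the C1qb UMIs 25.6% ± 10.0 lay there, and of the Tyrobp UMIs 13.9% ± 6.45. Trem2 (36.2%), C1qc (34.9%) and C1qa (32.8%) lay between these. Over all barcodes of the libraries every member had most of its UMIs outside the gate, with 30.1% ± 10.9 of P2ry12, 27.8% ± 6.79 of Cx3cr1 and 24.2% ± 8.35 of Csf1r in microglia-like nuclei, 8.66% ± 4.11 of C1qb and 3.93% ± 2.08 of Tyrobp, beside 0.519% ± 0.315 of all UMIs.

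The make-up of the signal differed from class to class. Among all UMIs of the 9 genes, the C1q genes together took 31.1% ± 2.37 (SD, n = 8 mice) in microglia-like nuclei, 46.7% ± 3.95 in other barcodes and 50.4% ± 3.89 in shallow barcodes. The C1q share was higher in other barcodes than in microglia-like nuclei in 8 of 8 mice. Tyrobp alone went from 3.49% ± 0.862 in microglia-like nuclei to 16.3% ± 4.13 in other barcodes and 18.3% ± 3.97 in shallow barcodes. Csf1r, Cx3cr1, P2ry12 and Tmem119 together took 61.5% ± 2.70, 32.4% ± 7.02 and 26.9% ± 6.63, and were lower outside the gate in 8 of 8 mice. Trem2 took 3.93% to 4.57% in each class. These groupings were made after the values were seen and were not tested.

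**Figure D3:**
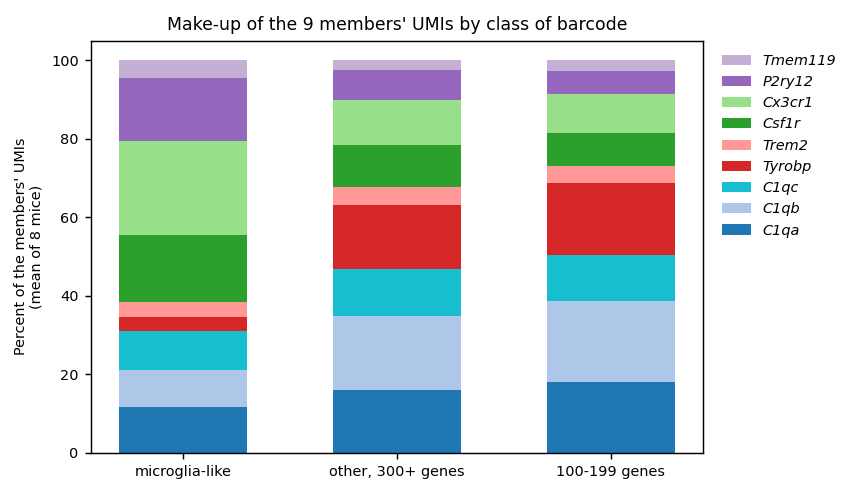
Share of each gene among the UMIs of the 9 genes (percent, mean of 8 mice) in the 3 classes of barcode, stacked from C1qa at the base to Tmem119 at the top. The C1q and Tyrobp segments together grow from 34.6% in microglia-like nuclei to 63.1% in other barcodes and 68.7% in shallow barcodes.

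Shallow barcodes held these genes at levels close to those of other barcodes of at least 300 genes, and the direction of the difference depended on the scaling. With TMM normalization 5 of 9 were higher, C1qa by 0.64 ± 0.12 (SE) on the log2 scale, Tyrobp by 0.63 ± 0.10, C1qb by 0.58 ± 0.10, Tmem119 by 0.52 ± 0.18 and C1qc by 0.45 ± 0.12 (adjusted p = 0.0177 or less, edgeR), beside 31.8% of all genes tested. Trem2, Cx3cr1, Csf1r and P2ry12 did not pass, at 0.31, 0.28, 0.11 and 0.08. With library totals alone as the scale, an alternative chosen after the data were seen, none of the 9 was higher, beside 5.48% of all genes. Csf1r and P2ry12 were lower, at -0.43 (adjusted p = 0.0051, edgeR) and -0.46 (adjusted p = 0.0021, edgeR), beside 67.3% of all genes. The median of all genes was -0.05 with TMM and -0.59 with totals, so 9 of 9 members lay above it on both scales.

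On the CPM scale the geometric mean ratio of shallow barcodes to other barcodes was 1.10 for C1qa, 1.09 for Tyrobp, 1.07 for Tmem119 and 1.05 for C1qb. It was 0.974 for C1qc, 0.923 for Trem2, 0.823 for Cx3cr1, 0.767 for Csf1r and 0.740 for P2ry12. Csf1r was lower in 8 of 8 mice (exact two-sided sign test, p = 0.0078125), as were 50.9% of genes. With counts pooled over mice, the median gene had a ratio of 0.619 and 14.1% of genes had a ratio above 1. All 9 geometric means lay above that pooled median, though the measures are not the same.

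Outside the gate, the level of the C1q genes and Tyrobp was lowest in the barcodes richest in genes. Microglia-like nuclei, which are left out here, had a median of 910.5 to 1124 genes per mouse, against 347 to 437 in other barcodes. Their removal thus falls on the gene-rich bins, and its part in the lower level there was not tested. Tyrobp held 22.6, 25.6, 25.6 and 27.6 CPM in shallow barcodes and in those of 200 to under 300, 300 to under 500 and 500 to under 1000 genes, and 5.26 ± 1.88 (SD, n = 8 mice) in barcodes of 1000 genes or more. C1qb held 27.5 ± 2.88 in barcodes of 300 to under 500 genes and 10.3 ± 6.84 in those of 1000 or more. The level at 1000 genes or more lay below that at 300 to under 500 genes in 8 of 8 mice for C1qa, C1qb, C1qc and Tyrobp, which held for 8.1% of all genes with at least 100 UMIs. Trem2 and Tmem119 showed the same order in 7 mice each, Csf1r in 5, Cx3cr1 in 3 and P2ry12 in 2. P2ry12 held 7.03 ± 1.24 at 300 to under 500 genes and 14.1 ± 8.60 at 1000 genes or more. Over 12280 genes with at least 100 UMIs, the median ratio of the first level to the second was 0.348. Among the members this ratio ran from 0.499 for P2ry12 to 4.87 for Tyrobp. The rise of P2ry12 was thus smaller than that of the median gene. At 500 to under 1000 genes Csf1r was uneven among mice, with 114 CPM in Tsc2 mut/mut mouse 1, 59.7 in Tsc2 mut/mut mouse 3 and 8.44 to 31.5 in the other mice.

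**Figure D4:**
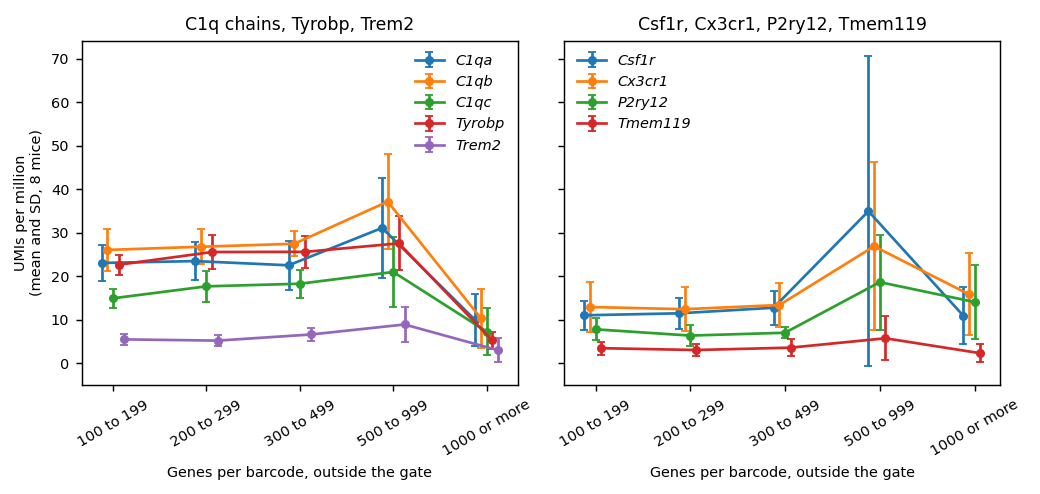
CPM outside the gate against the number of genes per barcode, in 5 bins from 100 to under 200 up to 1000 or more (points mean, bars SD, 8 mice), with the C1q genes, Tyrobp and Trem2 on the left and Csf1r, Cx3cr1, P2ry12 and Tmem119 on the right. The microglia-like nuclei left out had a median of 910.5 to 1124 genes per mouse. C1qb goes from 37.1 at 500 to under 1000 genes to 10.3 at 1000 or more and Tyrobp from 27.6 to 5.26, while Cx3cr1 goes from 26.9 to 15.9, and the long Csf1r bar at 500 to under 1000 genes stems from 114 and 59.7 in Tsc2 mut/mut mice 1 and 3.

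C1q genes also gathered in single barcodes that the gate missed. Outside the gate, 268 of 37390 barcodes (0.717%) held 3 or more UMIs of C1qa, C1qb and C1qc in sum, against 194 of 491 microglia-like nuclei (39.5%). Of the 268, 89 held 1 of the gate genes, and 75 had under 20% mitochondrial UMIs. Their median mitochondrial share was 39.7%, against 11.6% in microglia-like nuclei and 46.3% in other barcodes with no C1q UMI. The barcodes were rich in the other members, which the choice did not use. Pooled over mice, Csf1r was 70.4 times, Trem2 68.8 times, Tmem119 58.4 times, P2ry12 54.9 times, Cx3cr1 45.7 times and Tyrobp 27.6 times as high as in other barcodes with no C1q UMI. Genes were also ranked among the 161 with at least 200 UMIs in these same barcodes, a minimum that favours genes high in them. All these other members, from Tmem119 at 48 UMIs to Csf1r at 194, fell below it and were left out. The highest ratios among the 161 were those of Inpp5d (86.9), the lysosomal protease gene Ctss (81.8) and the TGF-beta receptor gene Tgfbr1 (42.3). Next came Ldlrad4 (20.1), Zfhx3 (19.0) and Elmo1 (16.9), an engulfment gene. These ratios are a description with no test.

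The wider pathway showed which partners of these genes the microglia-like nuclei held. The counts below stand beside 16.1% of all genes called higher and 56% called lower with TMM, and 43.7% and 19.5% with library totals only. All 10 regulators of microglial identity were higher in microglia-like nuclei than in other barcodes (median log2 difference 3.61, edgeR), among them Tgfbr1 by 4.99 ± 0.27 (SE) and the transcription factor gene Mef2c by 2.40 ± 0.23. All 4 signal carriers of the Trem2-Tyrobp complex that passed the filter on low counts in other barcodes alone were higher (median 4.83), led in counts by the adaptor genes Pik3ap1 (5.10 ± 0.25) and Blnk (4.88 ± 0.24). Among complement receptors, Itgam, a subunit of complement receptor CR3, was higher by 4.81 ± 0.24. C3ar1, the receptor of C3a, had 76.8 ± 33.8 CPM in microglia-like nuclei (66 UMIs) and 0.707 ± 0.388 in other barcodes, and, like 2 further signal carriers named after their values were seen, Syk and Ptpn6, passed the filter only through the microglia-like nuclei, so no test is given for these 3. Of 8 tested complement inhibitors 3 were higher and 4 lower with TMM (median -0.62), and 4 higher and 2 lower with library totals only (median 0.90), with Csmd3 among the higher on both (3.59 ± 0.25 and 5.30). None of the 8 listed complement effectors reached the filter in this comparison, and the most counted in microglia-like nuclei, C4b and Masp1, had 14 and 9 UMIs.

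Other homeostatic genes of microglia were higher in 7 of 8 tested (median 4.38), while Cst3, also abundant in astrocytes, was lower with TMM (-1.59 ± 0.22) but did not pass with totals only (0.15, adjusted p = 0.506, edgeR), at 3651 ± 972 CPM in microglia-like nuclei and 3261 ± 390 in other barcodes. Of the ligands of these receptors, 2 of 3 tested were lower and none higher on both scales (median -3.80 with TMM, -2.06 with totals), with Apoe, a Trem2 ligand made in bulk by astrocytes, at -3.80 ± 0.25 and -2.06. Over all genes, 56% were called lower with TMM and 19.5% with totals, so a lower call with TMM was common. Csf1 did not pass on either scale, at -0.49 ± 0.44 with TMM and 0.99 with totals (adjusted p = 0.0754, edgeR). Of 7 tested genes known to rise in disease-associated microglia, Ctsd (1.30 ± 0.25) was higher and Fth1 (-3.51 ± 0.23), Axl and Cd63 were lower with TMM (median -0.09), the last 2 named after their values were seen. With totals only 4 of these 7 were higher and 2 lower (median 1.59), with Ctsd at 3.01 and Fth1 at -1.77 keeping their directions and Axl not passing at -0.88 (adjusted p = 0.0602, edgeR).

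No member passed the test between genotypes in any class of barcode. Over all barcodes of at least 300 genes, 0 of 9 passed the edgeR test, 0 passed with DESeq2, and 0.0153% of all genes were called. An unadjusted p below 0.05 was found for 0 of the 9 and 2.58% of all genes. The log2 difference, Tsc2 mut/mut over Tsc2 wt/wt, had a median of 0.11 over the 9 genes and 0.00 over all genes, with P2ry12 the farthest from 0 at -0.43 ± 0.40 (SE, n = 4 mice per genotype). In such sums, fewer nuclei of a type and less RNA per nucleus cannot be told apart. The share of barcodes that passed the gate was therefore compared on its own. Passing needs at least 1 UMI of both gate genes, so this share also depends on RNA per nucleus. Microglia-like nuclei were 1.04%, 1.35%, 0.732% and 1.65% of barcodes of at least 300 genes in the 4 Tsc2 wt/wt mice and 1.97%, 1.00%, 1.5% and 0.215% in the 4 Tsc2 mut/mut mice. The groups overlapped, with Tsc2 mut/mut mouse 4 far below the other mice on 9 nuclei. The means were 1.19% ± 0.394 (SD) and 1.17% ± 0.751 (exact two-sided permutation test, p = 0.943). Without that mouse the difference, Tsc2 mut/mut minus Tsc2 wt/wt, was 0.30 percentage points instead of -0.02 (p = 0.457, exact permutation test), and among barcodes of at least 500 genes it was 1.82 (p = 0.4, exact permutation test).

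Within microglia-like nuclei, 8 of the 9 log2 differences were below 0, and none passed the edgeR test or DESeq2, beside 0.0488% of all genes called. An unadjusted edgeR p below 0.05 was found for 2 of the 9, beside 5.76% of all genes. The median was -0.22 over the 9 genes and 0.02 over all genes. P2ry12 was the gene with the lowest p. It held 882, 791, 1354 and 1560 CPM in the Tsc2 wt/wt mice and 580, 861, 438 and 551 in the Tsc2 mut/mut mice. The groups overlapped through Tsc2 wt/wt mouse 2 and Tsc2 mut/mut mouse 2, and the log2 difference was -0.87 ± 0.27 (SE), with an unadjusted p of 0.0053 and an adjusted p of 0.592 (edgeR). C1qa held 575, 611, 1424 and 748 CPM in Tsc2 wt/wt and 503, 602, 339 and 386 in Tsc2 mut/mut. Here too the groups overlapped, through Tsc2 wt/wt mouse 1 and Tsc2 mut/mut mouse 2, at a log2 difference of -0.77 ± 0.31 with an unadjusted p of 0.0243 and an adjusted p of 0.761 (edgeR). The value of P2ry12 lay between -1.10 and -0.68 when any 1 mouse was left out, and that of C1qa between -0.92 and -0.47.

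The C1qb difference in microglia-like nuclei was -0.33 ± 0.33 and that of Tyrobp -0.43 ± 0.39. C1qc, Csf1r, Cx3cr1 and Trem2 lay between -0.22 and -0.18, and Tmem119 at 0.15 ± 0.35. These values rest on few counts, since Tsc2 mut/mut mouse 4 gave 2 to 25 UMIs per gene and Tsc2 wt/wt mouse 3 gave 8 to 60. Of the marker lists of other cells in the same nuclei, only the NSC or astrocyte list did not overlap between genotypes. Its 6 markers, all detected, summed to 977 to 4657 CPM in Tsc2 wt/wt and 5715 to 8046 in Tsc2 mut/mut. Every other list overlapped, such as oligodendrocyte markers at 575 to 1252 and 606 to 1610 CPM. Among single genes with at least 100 UMIs in these nuclei, 4.07% did not overlap. The median mitochondrial share was 3.72% to 11.4% in Tsc2 wt/wt and 9.52% to 16.3% in Tsc2 mut/mut. The part of the NSC or astrocyte markers or of the mitochondrial share in the lower P2ry12 and C1qa values was not tested. Of the 491 nuclei 47 also passed the gate of another cell class and may be doublets, for which no caller was run. Without them, P2ry12 differed by -0.76 and C1qa by -0.63, and neither passed.

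The 9 genes share mice and barcodes, so their signs are not independent in any class. In other barcodes of at least 300 genes, most signs were opposite to those in microglia-like nuclei. There 8 of the 9 log2 differences were above 0 with a median of 0.22, against 0.00 over all genes. None passed the edgeR test or DESeq2, beside 0.0156% of all genes called, and 0 had an unadjusted p below 0.05, beside 2.96% of all genes. Cx3cr1 held 15.0, 15.3, 8.63 and 11 CPM in Tsc2 wt/wt and 23.9, 20.3, 24.0 and 6.25 in Tsc2 mut/mut. The first 3 Tsc2 mut/mut mice lay above all Tsc2 wt/wt mice and mouse 4 lay below them, for a log2 difference of 0.59 ± 0.31 (adjusted p = 0.994, edgeR). Whether the genotype effect differed inside and outside the gate was tested per gene on the log2 scale with 10 CPM added. The difference of differences was -0.92 for C1qa (p = 0.0571, exact two-sided permutation test), -0.85 for P2ry12 (p = 0.114) and nearer to 0 for the other 7 genes (p = 0.286 or more). With 9 genes tested, none was below 0.05. C1qa reached 0.0286, the smallest p that 4 against 4 mice allow, under 3 other settings, with the same sign. Those without barcodes of another gate and without barcodes with a border macrophage marker were chosen after the data were seen. The remaining setting added 50 CPM.

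In shallow barcodes, 8 of 9 differences were again below 0 (median -0.23 against -0.01 over all genes), and none passed the edgeR test or DESeq2, beside 0.227% of all genes called. An unadjusted edgeR p below 0.05 was found for 2 of the 9, beside 7.72% of all genes. C1qb held 30.2, 28.5, 28.4 and 30.7 CPM in Tsc2 wt/wt and 22.7, 27.9, 23.2 and 16.8 in Tsc2 mut/mut. Trem2 held 6.08, 6.20, 6.78 and 7.00 in Tsc2 wt/wt and 4.53, 5.91, 3.86 and 3.63 in Tsc2 mut/mut. Neither gene overlapped between genotypes, which held for 2 of 9 members and for 5.78% of all genes with at least 100 UMIs. In microglia-like nuclei, other barcodes and all barcodes of at least 300 genes every member overlapped, beside 4.07%, 2.28% and 2.21% of genes that did not. The log2 differences were -0.34 ± 0.13 for C1qb (unadjusted p = 0.0149, adjusted p = 0.498, edgeR) and -0.48 ± 0.20 for Trem2 (unadjusted p = 0.0226, adjusted p = 0.533, edgeR). Tsc2 mut/mut mouse 4 was the lowest of 8 mice for 8 of the 9 genes in this class, all but Tyrobp. Without it the C1qb value was -0.25 and the Trem2 value -0.42. Depth within this class also varied by mouse. The median number of genes per shallow barcode was 127, 168, 131 and 129 in the Tsc2 wt/wt mice. In the Tsc2 mut/mut mice it was 169, 130, 185 and 163. The part of this depth in the C1qb and Trem2 differences was not tested.

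**Figure D5:**
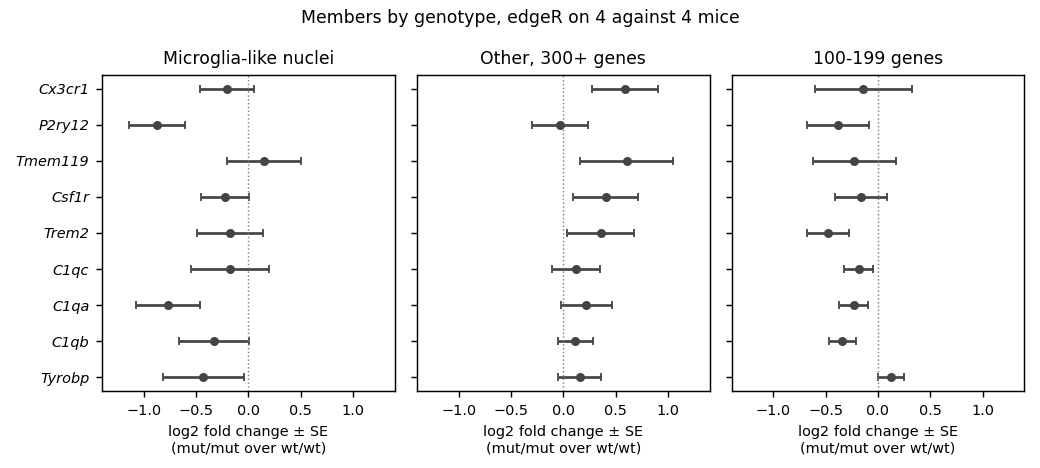
Log2 fold change of each gene between genotypes (points, Tsc2 mut/mut over Tsc2 wt/wt, bars ± SE, edgeR on 4 against 4 mice) in microglia-like nuclei, other barcodes of at least 300 genes and shallow barcodes. Microglia-like nuclei show P2ry12 at -0.87 and C1qa at -0.77 as the points farthest left, other barcodes show 8 of 9 points right of 0, and no gene passed the adjusted threshold in any panel.

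The related lists gave no call between genotypes either. None of the tested regulators, signal carriers, receptors, inhibitors, ligands, homeostatic or disease-associated genes passed in any class. In microglia-like nuclei the medians were -0.16 for 10 regulators, -0.16 for 5 signal carriers, -0.17 for 8 homeostatic genes and -0.33 for 5 disease-associated genes, beside 0.02 over all genes. Apoe stood at 0.62 ± 0.28 (adjusted p = 0.845, edgeR) and Itgam at -0.32 ± 0.29.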

How the data were processed

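The deposited tables held raw UMI counts per gene and barcode, with no normalization, which the authors made with Cell Ranger 7.0.1 on GRCm38 (mm10) with 60000 barcodes forced per library. Whether intronic reads were counted is not given in the sources used here. Members and lists were chosen with earlier results of these data known. Counts were summed per mouse and class of barcode (scipy 1.17.1, numpy 2.4.6). All genes were fitted with the edgeR 4.0.16 quasi-likelihood test (R 4.3.3, TMM, filterByExpr, robust, Benjamini-Hochberg, threshold 0.05), with genotype as the term, or with mouse and class within mice. p-values over mice come from 1 library per mouse. Single values were tested by the exact permutation test over 70 assignments or the exact sign test. Detection was compared after thinning to 500 UMIs. Named genes were the 9 members, the gate genes, genes of fixed lists that passed between genotypes or otherwise the 2 with the most UMIs in microglia-like nuclei, and the 6 genes with the highest ratio in C1q barcodes. Cell classes were named from pairs of genes, not from the authors' clusters, so they may differ from the study. Libraries differed beyond sampling noise in each of 28 pairs. The labels give no batch. Alternatives included DESeq2 1.42.0, no filter, other gene minimums, other gates and each mouse left out. The scripts were tested on simulated data. Clec7a was not analysed here, and 2 listed genes that the rule would name are not reported here.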

Additional observations from a re-analysis of the deposited data

Results flagged for a closer look

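In 4 of 74 groups of 4 mice, 1 mouse stood apart by Dixon's criterion (the gap to the nearest of the others against the whole range), which chance gives in about 1 in 20 groups. In microglia-like nuclei, C1qb was at 697 CPM in Tsc2 mut/mut mouse 2 against 331 to 370 in the other Tsc2 mut/mut mice, and Cx3cr1 was at 2084 in Tsc2 wt/wt mouse 3 against 1085 to 1170. The first of these mice was also among the pair with high border macrophage markers, and the second gave 16 nuclei. In shallow barcodes, C1qc was at 10.5 in Tsc2 mut/mut mouse 4 against 14.6 to 15.1. Over all barcodes of at least 300 genes, Tyrobp was at 28.2 in Tsc2 wt/wt mouse 2 against 21.4 to 22.4.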

How the results depend on the processing

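The 9 genes passed in microglia-like against other barcodes under all 20 alternatives, and none passed between genotypes under any of 656 alternative values (lowest adjusted p = 0.196), of which 43 had the other sign. Counts over all genes moved more. For genotype over all barcodes of at least 300 genes, 2 were called, 0 with library totals only, 7 with DESeq2, 0 with a replicate block, 0 at 500 genes or more and 0 to 3 leaving out 1 mouse. In microglia-like nuclei 1 was called, 7 without a filter, 2 with DESeq2, 0 with a replicate block, 2 with the loose gate, 0 without barcodes of another gate, 0 without barcodes with a border macrophage marker and 0 to 1 leaving out 1 mouse. In other barcodes 2 were called, 1 with totals only, 7 with DESeq2, 0 with a replicate block, 0 at 500 genes or more and 0 to 3 leaving out 1 mouse. In shallow barcodes 27 were called, 110 without a filter and 17 to 44 leaving out 1 mouse. For microglia-like against other barcodes 7359 were called, 1643 higher and 5716 lower, against 4462 higher and 1993 lower with totals only, and 4850 in all at 500 genes or more. Replicate numbers did not pair the mice (correlations -0.099, 0.055, -0.034 and 0.061 over 12930 genes), and the replicate block left 0 members called.

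The genotype difference in the share of microglia-like nuclei was 1.82 percentage points at 500 genes or more (p = 0.4, exact permutation test), 0.069 with the loose gate and -0.29 to 0.30 leaving out 1 mouse. For the difference of differences, 1 of 9 genes, C1qa, was below 0.05 without barcodes of another gate, without barcodes with a border macrophage marker and with 50 CPM added, the first 2 chosen after the data were seen. With 1 mouse left out no p below 0.05 was possible. Trem2 there was 0.11 with the loose gate, and Tmem119 was -0.26 with 1 CPM added and -0.21 to 0.32 leaving out 1 mouse.

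Uncalled members changed sign as follows. Over all barcodes of at least 300 genes, C1qc was -0.012 with totals only, C1qb -0.016, C1qc -0.0068 and Csf1r -0.024 at 200 genes or more, and C1qb -0.0058 and Tyrobp -0.16 at 500 or more. Leaving out 1 mouse gave C1qa -0.17 to 0.15, C1qb -0.063 to 0.16, C1qc -0.16 to 0.22, Csf1r -0.070 to 0.42, Trem2 -0.0024 to 0.35 and Tyrobp -0.012 to 0.21. In microglia-like nuclei Trem2 was 0.10 with the loose gate, and leaving out 1 mouse gave C1qc -0.70 to 0.092, Cx3cr1 -0.42 to 0.024, Tmem119 -0.19 to 0.37 and Trem2 -0.45 to 0.0035. In other barcodes, P2ry12 was 0.065, C1qb -0.085 and Tyrobp -0.26 at 500 genes or more, and P2ry12 was 0.065 with the loose gate, 0.094 with at most 20% mitochondrial UMIs in the gate and 0.052 without barcodes of another gate. Leaving out 1 mouse gave C1qc -0.043 to 0.28, P2ry12 -0.18 to 0.12 and Tyrobp -0.012 to 0.30 there, and Csf1r -0.34 to 0.044, Cx3cr1 -0.40 to 0.12 and Tmem119 -0.45 to 0.092 in shallow barcodes.

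For shallow barcodes against other barcodes, 5 members were called, 0 higher with totals only, 4 with 200 to under 300 genes and 4 to 7 leaving out 1 mouse. Totals only gave C1qc -0.087, Csf1r -0.43, Cx3cr1 -0.27, P2ry12 -0.46, Tmem119 -0.031 and Trem2 -0.22, and 200 to under 300 genes gave P2ry12 -0.19. The fit with totals only differed from the main fit in the scaling alone. The cause of the changes under other settings was not tested. Depth limits the values of Tsc2 mut/mut mouse 4, with 9 microglia-like nuclei, and of Tsc2 wt/wt mouse 3, with 16.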
